A study of Rattus norvegicus with 10 samples.

Results

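The mitochondrial genome of the rat is a small circular DNA that carries 37 annotated genes, 13 for messenger RNAs, 2 for ribosomal RNAs and 22 for transfer RNAs. Its members here are all rows of the deposited gene table placed on chromosome MT, 37 of 32545 genes. The RNA was that of the renal cortex of Dahl salt-sensitive (SS/JrHsdMcwi) rats, labelled wild type, an inbred strain that becomes hypertensive when fed salt. The 5 libraries of the first group came from rats fed 4% NaCl with 2% oxonic acid, which inhibits uricase, the enzyme by which rats clear uric acid, for 3 weeks. The 5 vehicle libraries came from rats fed 4% NaCl alone for the same time. All rats had eaten 0.4% NaCl before the switch and had received blood pressure telemeters at an age of 8 to 9 weeks. Male and female rats were used, but no library carries a sex label or is tied to its own rat, so p-values measure the spread between these samples, which may be technical.

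Mitochondrial DNA is transcribed from both strands as long precursors that are cut at the transfer RNA genes lying between the messages. The messages encode core subunits of the respiratory chain and of ATP synthase, whose other subunits come from nuclear genes, and the ribosomal and transfer RNAs serve the mitochondrial ribosome that translates them. Kidney tubules are rich in mitochondria because active salt reabsorption consumes ATP. These libraries were made from RNA bound to poly-T beads, and in mammals most mitochondrial messages carry a short poly(A) tail, whereas transfer RNAs carry none and the tail of the Mt-nd6 message is described in human cells as absent or very short.

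In the table's own coordinates (the build is not stated in the labels), 28 genes lay on the plus strand and 9 on the minus strand. The plus strand held 12 messages and both ribosomal RNAs, and the minus strand held Mt-nd6 and 8 transfer RNAs. Genes were packed from base 1 to base 15415, and some overlapped. Mt-atp8 (7758 to 7961) shared 43 bp with Mt-atp6 (7919 to 8599) on the same strand, and Mt-nd4l (9870 to 10166) shared 7 bp with Mt-nd4 (10160 to 11537). Mt-nd5 (11736 to 13565) shared 23 bp with Mt-nd6 (13543 to 14061) on the opposite strand. Nothing in the labels tells if counting used strand or how reads over 2 genes were assigned, so values of overlapping genes are uncertain. Copies of mitochondrial DNA in the nuclear genome can also compete for reads, which was not tested.

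Reads in genes, worked back from FPKM (fragments per kilobase, adjusted for depth) and gene length, numbered 14.5 to 18.5 M (mega) per library. Each message held 531 to 816410 reads in a library, with Mt-atp8 the lowest at 531 to 652, where counting error is not small beside the spread between libraries. Of the 37 genes, 35 had a mean of at least 0.5 FPKM over the 10 libraries and were tested. The other two were transfer RNA genes, at 1 to 67 with 0 reads in all 10 libraries and at 3761 to 3831 with 1 read in a single oxonic acid library. Vehicle library 4 stood apart from the other vehicle libraries, with the lowest value of all 10 libraries in 10 of the 12 plus-strand messages. The numbers in the sample descriptions fell into 3 runs, which the labels do not call batches. Run A held 3 oxonic acid libraries and 0 vehicle libraries, run B held 1 and 3, and run C held 1 and 2. The 2 vehicle libraries of run C were vehicle libraries 4 and 5.

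Genes of the mitochondrial genome took 13.2, 12.03, 13.5, 11.6 and 12.6% of gene-assigned reads with oxonic acid, against 12.1, 11.6, 11.3, 9.23 and 11.9% with vehicle. The groups overlapped, and the lowest value was that of vehicle library 4. The mean share was 12.6% ± 0.773 with oxonic acid and 11.2% ± 1.14 with vehicle (SD, n = 5 each), a difference of 1.38 percentage points, or 0.885 without vehicle library 4. Within run B the share was 11.6% in the oxonic acid library and 11.6% on average in the 3 vehicle libraries, a difference of -0.00105 percentage points. Within run C it was 12.6% in the oxonic acid library and 10.6% on average in the 2 vehicle libraries. Those 2 were vehicle library 4 at 9.23% and vehicle library 5 at 11.9%. Nearly all of these reads lay in the messages, which took 12.5% ± 0.775 of the reads in genes with oxonic acid and 11.1% ± 1.14 with vehicle. The ribosomal RNAs took 0.116% ± 0.0161 and the transfer RNAs 0.00886% ± 0.00124 with oxonic acid, against 0.110% ± 0.00976 and 0.00942% ± 0.000767 with vehicle (SD, n = 5 each).

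**Figure D1:**
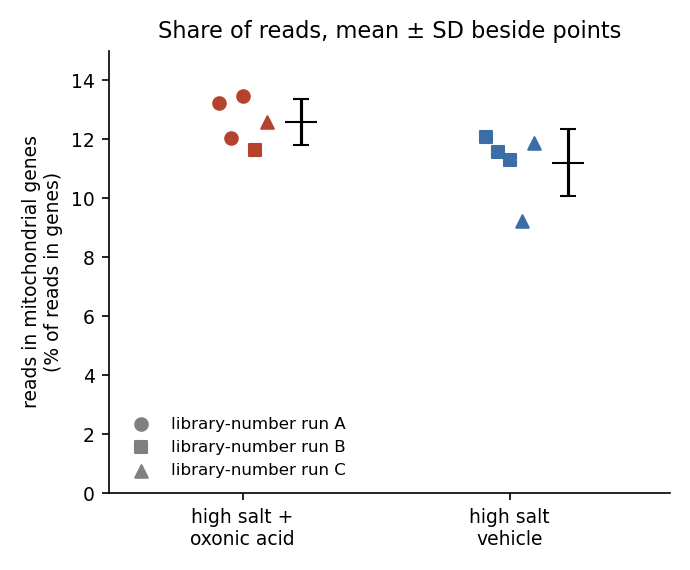
Reads in the 37 mitochondrial genes as a percentage of reads in genes (vertical axis, from 0), 1 point per library, with marker shape for the library-number run and the mean ± SD beside each group. The oxonic acid libraries lie between 11.6 and 13.5% and the vehicle libraries between 9.23 and 12.1%, with the triangle at 9.23% being vehicle library 4.

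Vehicle library 4, which had the lowest share, also had the highest summed level of tubular injury markers. Those markers (14 of 14 matched, none at 0) summed to 1047 to 1918 FPKM in the oxonic acid group and 1759.8 to 3979 FPKM in the vehicle group, the highest sum being that of vehicle library 4. Vehicle libraries 1, 2, 3 and 5 had sums of 1962, 3642, 2180.0 and 1759.8 FPKM with shares of 12.1, 11.6, 11.3 and 11.9%. In the oxonic acid libraries the sums were 1243, 1047, 1750.0, 1918 and 1729 FPKM, with shares of 13.2, 12.03, 13.5, 11.6 and 12.6%. The sums are mostly Spp1 (osteopontin), at 1517 FPKM on average over the 10 libraries. Gene by gene in limma, 13 of the 14 injury markers had lower values with oxonic acid (median log2 difference -0.54), 10 at an unadjusted p under 0.05. Higher values were found for 9 of 9 collecting duct markers, 5 under that level. Of all genes tested, 51.8% had higher values, and 4.32% were higher and 5.17% lower under that level. Proximal tubule markers were higher in 11 of 13 tested and thick ascending limb markers in 5 of 6 (0 and 1 under it). Distal convoluted tubule markers were higher in 4 of 5 and inner medulla markers in 5 of 5 (2 and 0 under it). Macrophage markers were lower in 9 of 9 (5 under it). In limma, 0 markers passed after adjustment. Proximal tubule markers (13 of 14 matched, none at 0) summed to 7507 to 8763 FPKM in the oxonic acid group and 6242 to 7757 FPKM in the vehicle group, thick ascending limb markers (6 of 6) to 1384 to 2895 and 1194 to 1923 FPKM, and distal convoluted tubule markers (6 of 6) to 305.7 to 364 and 170.4 to 381 FPKM in that order of groups. Collecting duct principal cell markers (9 of 9) summed to 354 to 484 FPKM in the oxonic acid group and 267 to 367 FPKM in the vehicle group, inner medulla markers (5 of 5) to 234 to 331 and 216 to 262 FPKM, and macrophage markers (10 of 10) to 357 to 455 and 411 to 567 FPKM. The inner medulla sums are mostly Crym, at 211 FPKM on average over the 10 libraries. Slc14a2 measured 0 to 16.0 FPKM in the oxonic acid group and 0 to 0.505 FPKM in the vehicle group. Akr1b1 measured 14.8 to 93.7 and 16.6 to 35.7 FPKM in that order. Inner medulla markers in oxonic acid library 3, which had the highest share, averaged 1.87 above their means on the log2 scale. That average was 0.356 or less in every other library. The part of the cell type and injury markers in the mitochondrial share was not tested. In bulk samples, fewer cells of a type and less RNA per cell cannot be told apart. Small nuclear, small nucleolar, small Cajal body and non-mitochondrial ribosomal RNAs, which mostly lack poly(A) tails, took 0.00929 to 0.0137% of the reads with oxonic acid and 0.00980 to 0.0132% with vehicle.

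The messages kept almost the same order of levels in every library, on the FPKM scale, which is per length. Mt-co1, Mt-atp6, Mt-cox3, Mt-co2, Mt-cytb, Mt-nd1 and Mt-nd2 ranked 1 to 7 in all 10 libraries. Mt-nd4l, Mt-nd3, Mt-nd5 and Mt-nd6 shared ranks 8 to 11 and changed places between libraries, and Mt-nd4 and Mt-atp8 were at ranks 12 and 13 throughout. The complex IV messages alone took 57.4% ± 0.439 of the mitochondrial reads with oxonic acid and 57.2% ± 0.748 with vehicle. The 7 complex I messages took 18.4% ± 0.366 and 18.4% ± 0.272, the 2 ATP synthase messages 13.1% ± 0.222 and 13.2% ± 0.565, and Mt-cytb, the only complex III message, 10.1% ± 0.184 and 10.1% ± 0.265 in the same order (SD, n = 5 each).

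**Figure D2:**
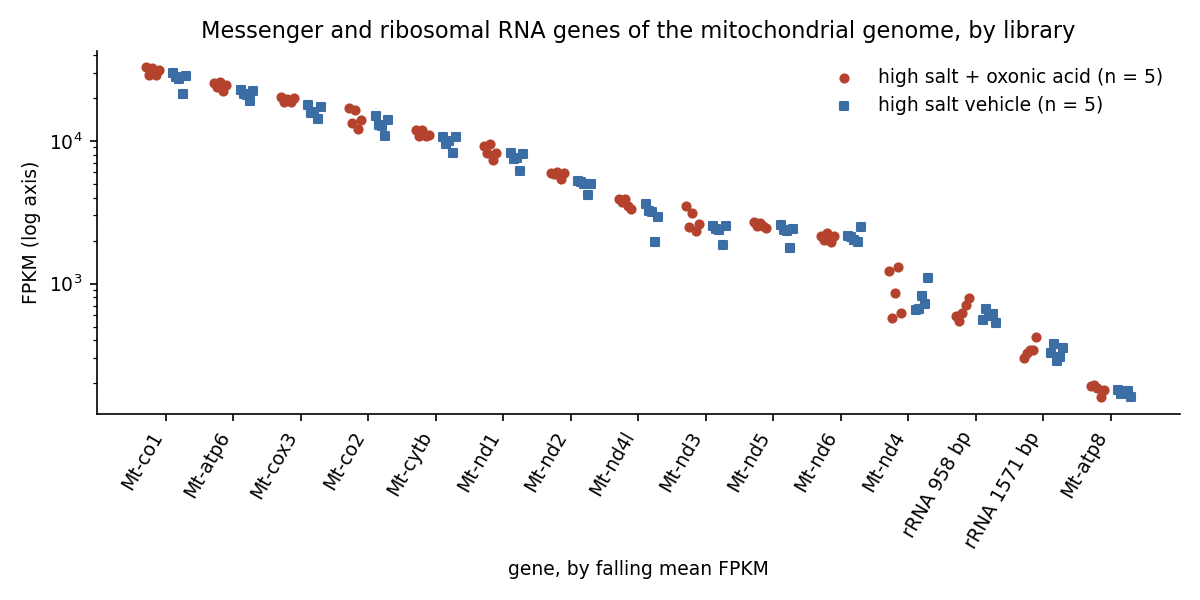
FPKM on a log axis for the 13 messenger and 2 ribosomal RNA genes, ordered by mean level, with 1 point per library (circles for the 5 oxonic acid libraries, squares for the 5 vehicle libraries). Levels run from 21298 to 32697.5 FPKM for Mt-co1 down to 159.8 to 196 FPKM for Mt-atp8, and Mt-nd4 spreads from 574 to 1300.0 FPKM.

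The comparison of oxonic acid with vehicle asks what uricase inhibition adds to a high salt diet at the level of transcripts. All 12 plus-strand messages had higher mean values with oxonic acid, by 0.08 to 0.34 on the log2 scale with a median of 0.20 (a fold of 1.15), while the minus-strand Mt-nd6 was at -0.02. The median was 0.01 over all 14508 genes tested, of which 51.8% were above 0. With libraries scaled to equal totals of FPKM times length, the median over all genes was -0.026. On that scale Mt-nd1 was at 0.15, against 0.18 unscaled. No mitochondrial gene passed: in limma's test on log2(FPKM + 0.5), 0 of 35 had an adjusted p under 0.05, with adjusted p of 0.335 to 0.997, and 0.00% of all genes tested did. At an unadjusted p under 0.05, 3 of the 13 messages were higher and 0 lower, where 4.32% of all genes tested were higher and 5.17% lower. With voom, the variant of limma that weighs the returned reads by their precision, 7 of the 13 were higher at that level, against 4.80% of all genes tested, 0 were lower, against 4.95%, and again 0 passed after adjustment over all genes. Without vehicle library 4, 3 of the 13 messages were higher and 0 lower at that level in limma (4.01% and 4.95% of all genes tested). With the runs as a block, 0 were higher and 0 lower (3.46% and 3.23%), while the median over the 12 plus-strand messages was 0.16 and Mt-nd2 was at 0.22. Run A holds no vehicle library, so the differences of that fit rest on runs B and C, with 1 oxonic acid library each. Without a block and with all libraries, 8 of the 35 tested mitochondrial genes were under that level in either direction, against 9.49% of all genes tested. The 12 messages come from the same DNA and were measured in the same libraries, so they do not count as separate evidence. Without vehicle library 4 the median over the 12 was 0.14. Within run B, with 1 oxonic acid library, it was -0.0048, and within run C, also with 1, it was 0.31. Run C is the run that holds vehicle library 4.

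Among complex IV messages, which encode the catalytic core of cytochrome c oxidase, Mt-cox3 (8599 to 9382, plus strand, ENSRNOG00000030700) was the one whose groups did not overlap. It measured 20403, 18542, 19744, 18591 and 19956 FPKM with oxonic acid, against 17690.3, 15767, 15930.4, 14234 and 17206 FPKM with vehicle. Every oxonic acid library was above every vehicle library. The log2 difference was 0.27 (SE 0.113, limma adjusted p = 0.495), or 0.22 without vehicle library 4. Within runs B and C it was 0.18 and 0.35, with vehicle library 4 in run C. Mt-co1 (5323 to 6867, ENSRNOG00000034234), the subunit that holds the oxygen-reducing centre, measured 32697.5, 28927, 32315, 29047.5 and 31219.6 FPKM with oxonic acid, against 30037, 27809, 27250.1, 21298 and 28309.6 FPKM with vehicle. Its groups overlapped, and the log2 difference of 0.20 (SE 0.141, limma adjusted p = 0.648) was 0.12 without vehicle library 4. Mt-co2 (7006 to 7689, ENSRNOG00000030371), which accepts electrons from cytochrome c, measured 16957, 13354, 16458, 12121 and 13937 FPKM with oxonic acid, against 14803, 12837, 12703, 10713 and 14065 FPKM with vehicle. Its groups overlapped widely, with a difference of 0.16 on the log2 scale (SE 0.139, limma adjusted p = 0.728), 0.090 without vehicle library 4 and 0.0088 with the runs as a block. Oxonic acid libraries 1 and 3, both of run A, held its 2 highest values, and within run B the difference was -0.15.

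Mt-cytb (14136 to 15278, ENSRNOG00000031766) encodes cytochrome b, the mitochondrial subunit of complex III. It measured 11809, 10816, 11900.5, 10716 and 11002 FPKM with oxonic acid, against 10682, 9463, 9954, 8247 and 10659 FPKM with vehicle. The groups did not overlap, by a narrow margin between 10716 FPKM in oxonic acid library 4 and 10682 FPKM in vehicle library 1. The log2 difference was 0.20 (SE 0.107, limma adjusted p = 0.567).

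Of the complex I messages, which encode the membrane subunits of NADH dehydrogenase, Mt-nd2 (3904 to 4942, ENSRNOG00000031033) was separated between the groups. It measured 5983, 5821, 6069.9, 5369 and 5969 FPKM with oxonic acid, against 5214, 5115, 4958, 4155 and 5009 FPKM with vehicle, and every oxonic acid library was above every vehicle library. Its log2 difference of 0.26 (SE 0.0902) had the smallest limma adjusted p of the messages, 0.414, and was 0.20 without vehicle library 4. Mt-nd4l had the highest log2 difference of the messages, 0.34 (SE 0.150, limma adjusted p = 0.520), and 0.19 without vehicle library 4. Mt-nd4l (ENSRNOG00000031053) measured 3943, 3722, 3922, 3487 and 3353 FPKM with oxonic acid, against 3598, 3249, 3159, 1943 and 2916 FPKM with vehicle, so its groups overlapped. Mt-nd1 (2740 to 3694, ENSRNOG00000030644) averaged 8475 ± 848 FPKM in the oxonic acid group and 7488 ± 843 FPKM in the vehicle group, Mt-nd3 (9451 to 9798, ENSRNOG00000033615) 2811 ± 477 and 2342 ± 283 FPKM, and Mt-nd5 (ENSRNOG00000029971) 2574 ± 100.2 and 2296 ± 310.3 FPKM (SD, n = 5 each). The groups of these 3 overlapped, with limma adjusted p of 0.628, 0.553 and 0.592. Their log2 differences were 0.18, 0.26 and 0.18, and 0.11, 0.17 and 0.084 without vehicle library 4. Of the 13 messages, 3 had all 5 oxonic acid libraries above all 5 vehicle libraries, a pattern found in 0.944% of all genes tested, and 0 had the opposite, found in 0.965%.

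Mt-nd4 (ENSRNOG00000029707), which encodes a proton-pumping subunit, behaved unlike its neighbours. It measured 1216, 574, 864, 1300.0 and 624 FPKM with oxonic acid, against 651, 666, 814, 722 and 1087 FPKM with vehicle. The groups overlapped fully, and the coefficient of variation was 36.3% with oxonic acid and 22.7% with vehicle, where the other 12 messages had 3.89 to 17.0% and 4.68 to 21.0%. Mt-nd4l, which shares 7 bp with it and in mammals is carried on the same message, was 2.68 to 6.49 times its level with oxonic acid and 2.68 to 5.52 times with vehicle. The log2 difference of Mt-nd4 was 0.16 (SE 0.239, limma adjusted p = 0.839), at 0.88 within run B and -0.50 within run C. Leaving out 1 library gave 0.018 (without oxonic acid library 4) to 0.31 (without oxonic acid library 2).

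The ATP synthase messages encode the proton channel subunit a (Mt-atp6) and the small membrane subunit Mt-atp8. Mt-atp6 (ENSRNOG00000031979) measured 25569.8, 23628, 25768, 22429 and 24705 FPKM with oxonic acid, against 22592, 21288, 20989, 18996 and 22388 FPKM with vehicle. Only oxonic acid library 4 was within the vehicle range, and the log2 difference was 0.20 (SE 0.119, limma adjusted p = 0.599). Mt-atp8 (ENSRNOG00000033299) averaged 183 ± 14.3 FPKM in the oxonic acid group and 173 ± 8.11 FPKM in the vehicle group (SD, n = 5 each), with the smallest log2 difference of the 12 plus-strand messages, 0.08 (SE 0.0625, limma adjusted p = 0.699). In mammals both are read from 1 message, yet Mt-atp6 was at 120.3 to 140.4 times the level of Mt-atp8 with oxonic acid and 107 to 139 times with vehicle. Mt-atp8 is 204 bp long and shares 21.1% of its length with Mt-atp6.

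Mt-nd6 (ENSRNOG00000029042), a complex I subunit and the only message on the minus strand, did not share the higher values. It measured 2168, 2018, 2253, 1952 and 2148 FPKM with oxonic acid, against 2168, 2111, 2007, 1959.5 and 2481 FPKM with vehicle. The groups overlapped, and the log2 difference was -0.02 (SE 0.0810, 95% interval -0.20 to 0.16, limma adjusted p = 0.942). As a part of the mitochondrial reads it was 0.831, 0.870, 0.873, 0.855 and 0.879% with oxonic acid, against 0.929, 0.984, 0.941, 1.11 and 1.10% with vehicle, and every oxonic acid library was below every vehicle library. With all values expressed relative to the mitochondrial total, its log2 difference was -0.23 (limma adjusted p = 0.192), which did not pass, and the median over all genes tested was -0.18. On that scale 6.33% of all genes tested had every oxonic acid library below every vehicle library, with 1 of the 13 messages, Mt-nd6, among them, and 0.0482% had the opposite, with 0 messages. At an unadjusted p under 0.05 on that scale, 22.7% of all genes tested were lower, Mt-nd6 among them, and 0.538% higher, with 0 messages. Mt-co1 was 14.6 ± 0.335 times the level of Mt-nd6 with oxonic acid and 12.6 ± 1.35 times with vehicle (SD, n = 5 each), the lowest ratios being 10.9 and 11.4 in vehicle libraries 4 and 5.

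**Figure D3:**
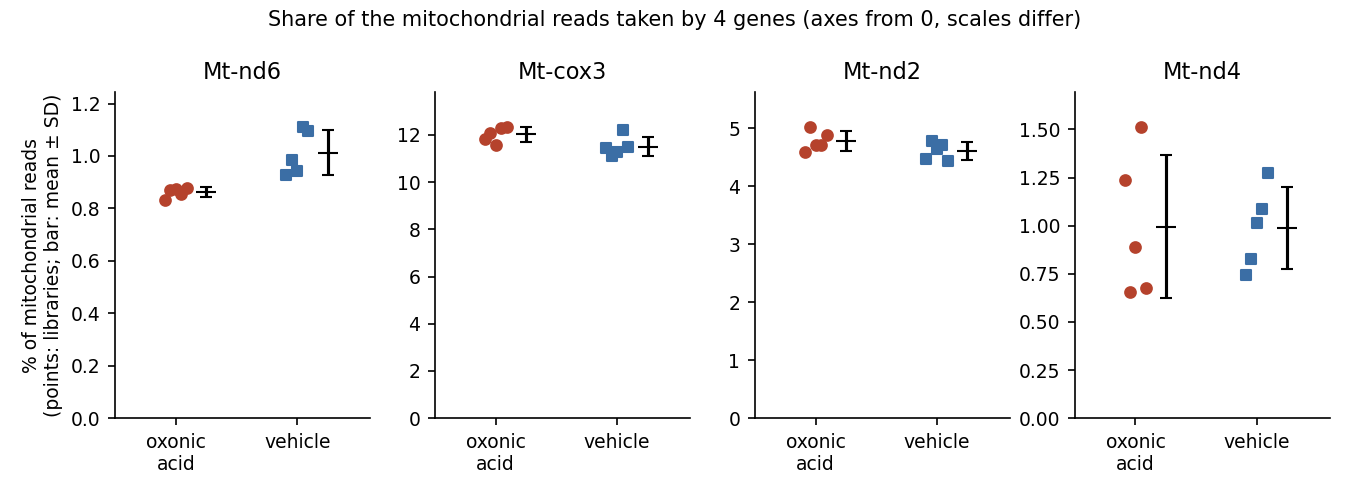
Share of the mitochondrial reads taken by Mt-nd6, Mt-cox3, Mt-nd2 and Mt-nd4 (vertical axes in percent, each from 0, scales differ), with 1 point per library and the mean ± SD beside each group. Mt-nd6 is at 0.831 to 0.879% in the oxonic acid libraries and 0.929 to 1.11% in the vehicle libraries without overlap, whereas the groups of the other 3 genes overlap.

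Both ribosomal RNA genes, which supply the RNA of the mitochondrial ribosome, were below most messages on the FPKM scale. The shorter gene (68 to 1025, ENSRNOG00000030478) measured 589, 546, 625, 713 and 798 FPKM with oxonic acid, against 559.5, 660.5, 591, 611 and 529 FPKM with vehicle. The longer gene (1094 to 2664, ENSRNOG00000043866) measured 303, 325, 344, 342 and 422 FPKM with oxonic acid, against 325, 378, 288, 308 and 352 FPKM with vehicle. Both overlapped between groups, and both were highest in oxonic acid library 5. Their log2 differences were 0.14 (SE 0.104) and 0.07 (SE 0.0974), with limma adjusted p of 0.675 and 0.834. With the runs as a block, where only runs B and C set the difference, they were 0.36 and 0.20 (limma adjusted p of 0.718 and 0.777). Without oxonic acid library 5 they were 0.064 and -0.0037.

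Transfer RNA genes, of 60 to 75 bp, held few reads, and 14 of the 22 averaged under 10 reads per library. The files give no amino acid for any of them, so they are named here by position. The minus-strand gene at 15348 to 15415, the last in the coordinates of the table, held 69.1% of all transfer RNA reads. It measured 1119, 907, 1009, 880.3 and 676 FPKM with oxonic acid, against 976, 1042, 809, 864 and 960.4 FPKM with vehicle, overlapping widely, with a log2 difference of -0.03 (limma adjusted p = 0.946). Of the 20 transfer RNA genes tested, 9 had higher and 11 lower mean values with oxonic acid, with a median of -0.03. At an unadjusted p under 0.05, 1 was higher and 4 lower, against 4.32% and 5.17% of all genes tested, and 0 passed in limma after adjustment over all genes.

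The 5 transfer RNA genes below that level had between 1 and 118 reads in a library. The gene between Mt-co2 and Mt-atp8 (7693 to 7756) measured 6.89, 14.0, 17.2, 6.01 and 16.2 FPKM with oxonic acid, against 19.7, 17.3, 19.3, 32.5 and 29.0 FPKM with vehicle. Every oxonic acid library was below every vehicle library, from 60 reads in all with oxonic acid and 124 with vehicle, and the log2 difference was -1.02 (SE 0.303, limma adjusted p = 0.380). The gene between Mt-nd3 and Mt-nd4l (9800 to 9867) measured 38.0, 75.9, 50.4, 68.7 and 51.7 FPKM with oxonic acid, against 56.6, 72.8, 96.2, 113 and 74.7 FPKM with vehicle, a log2 difference of -0.54 (limma adjusted p = 0.481) with overlapping groups. The messages on either side of both genes had higher mean values with oxonic acid. On the minus strand, the genes at 5256 to 5321 and 6865 to 6933, which flank Mt-co1, had log2 differences of -0.29 and -0.84 (limma adjusted p of 0.484 and 0.473). The gene at 3695 to 3763, after Mt-nd1, went the other way, with 32 reads in all with oxonic acid and 15 with vehicle and a difference of 1.11 on the log2 scale (SE 0.295, limma adjusted p = 0.335).

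**Figure D4:**
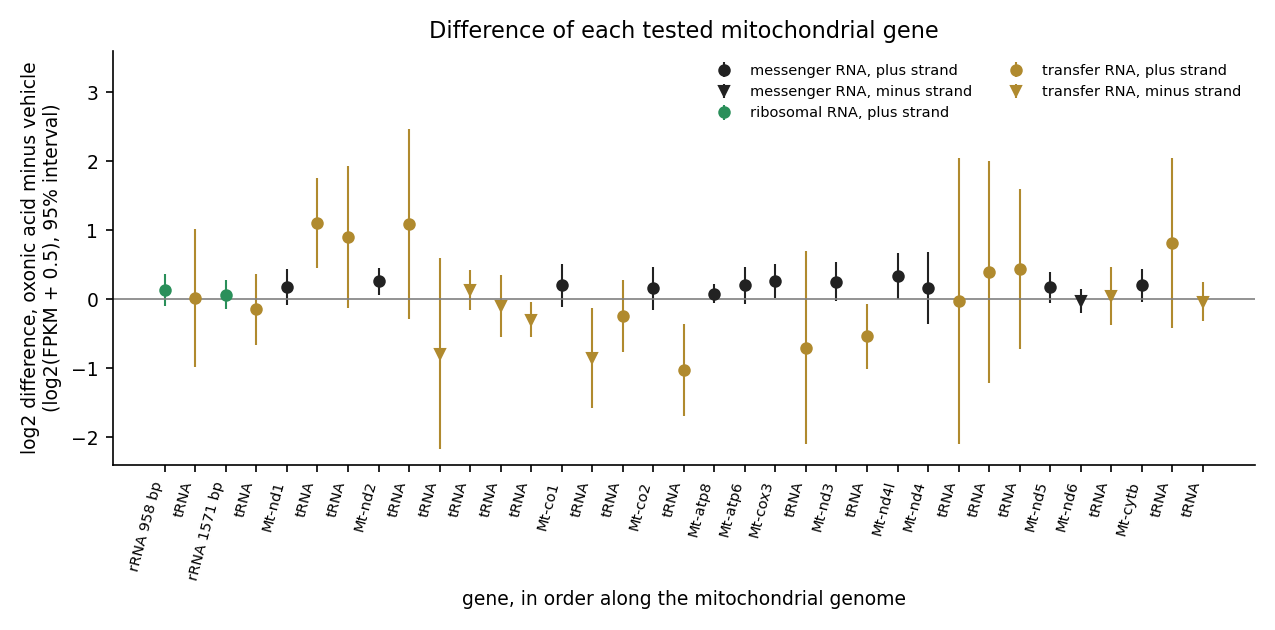
Log2 difference of each of the 35 tested mitochondrial genes, oxonic acid minus vehicle, with its 95% limma interval, in order along the mitochondrial genome (circles for plus-strand and triangles for minus-strand genes). The 12 plus-strand messages lie between 0.08 and 0.34, Mt-nd6 lies at -0.02, and the transfer RNA genes spread from -1.02 to 1.11 with wide intervals.

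The nuclear genes of the same complexes had median differences closer to 0. Their highest single log2 differences were 1.36 (SE 0.801) for Atp5f1 and 1.29 (SE 0.992) for Ndufa1. Of 66 nuclear subunit genes of complexes I, III, IV and V tested, 36 had higher and 30 lower mean values with oxonic acid, with a median log2 difference of 0.00. Without vehicle library 4 that median was 0.038, against the 0.14 of the 12 plus-strand messages. In limma, 0 passed and 0 had an unadjusted p under 0.05, where 9.49% of all genes tested did, and voom, too, called 0 genes of the whole table. Complex I had a median log2 difference of 0.18 over its 7 mitochondrial messages and 0.01 over 32 nuclear ones. Complex III had 0.20 for its message and 0.02 over 8 nuclear ones. Complex IV had 0.20 over 3 and -0.01 over 10, and complex V 0.14 over 2 and -0.01 over 16. These lists count Ndufa4, whose product is also assigned to complex IV, under complex I. They count Atpif1, which encodes an inhibitor of ATP synthase, under complex V. The summed complex IV messages measured 64854 ± 4549 FPKM in the oxonic acid group and 56130.5 ± 6138 FPKM in the vehicle group when encoded by mitochondrial DNA, and 5499 ± 341 and 5539 ± 498 FPKM when encoded in the nucleus (SD, n = 5 each). The median plus-strand message was above the median nuclear subunit by 5.08, 5.13, 5.19, 4.98 and 5.05 on the log2 scale in the oxonic acid libraries, against 4.98, 4.94, 4.92, 4.52 and 4.91 in the vehicle libraries. Vehicle library 4, lowest for most mitochondrial messages, had the highest summed level of nuclear subunits in all 4 complexes, such as 6335 FPKM for complex IV.

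**Figure D5:**
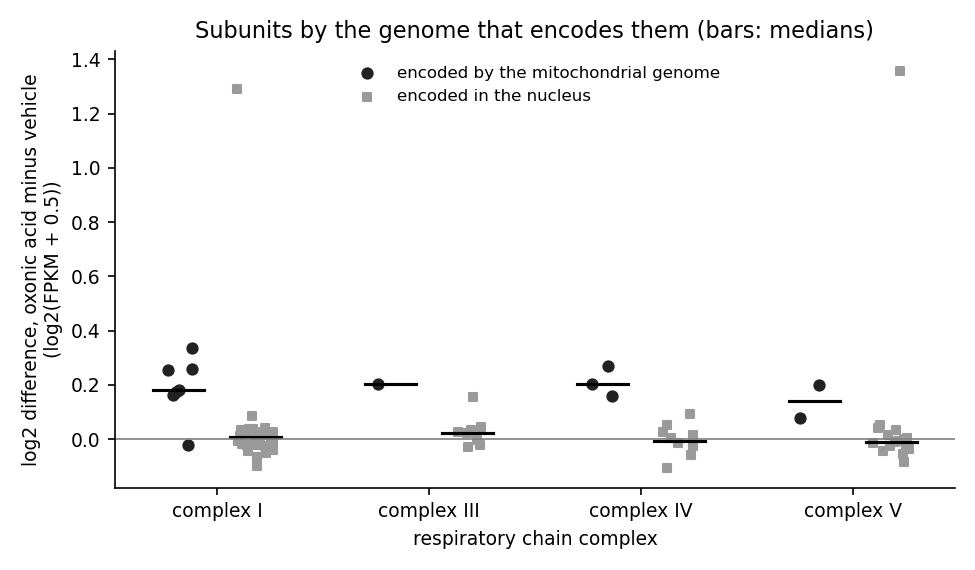
Log2 difference, oxonic acid minus vehicle, of each subunit gene of complexes I, III, IV and V, with subunits encoded by the mitochondrial genome as black circles, nuclear ones as grey squares and bars at the medians. The mitochondrial medians lie between 0.14 and 0.20 and the nuclear medians between -0.01 and 0.02.

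Nuclear genes that copy, process and translate mitochondrial RNA had medians near 0. For transcription and replication of mitochondrial DNA, 9 of 20 tested genes had higher values, with a median log2 difference of -0.01. Polrmt, the mitochondrial RNA polymerase, averaged 12.6 ± 1.44 FPKM in the oxonic acid group and 11.8 ± 0.721 FPKM in the vehicle group, and Tfam, which binds the promoters and packs the DNA, 28.8 ± 0.673 and 29.9 ± 3.99 FPKM (SD, n = 5 each). Log2 differences were 0.08 for the helicase gene Twnk (listed as Peo1), -0.04 for the DNA polymerase gene Polg and 0.11 for the single-strand binding gene Ssbp1. For RNA processing and stability, 15 of 32 had higher values, with a median of -0.01. Lrpprc and Slirp, whose products stabilise mitochondrial messages, were at -0.03 and -0.06, the 3' processing nuclease Elac2 at 0.02 and the oligoribonuclease Rexo2, which had the smallest limma adjusted p of that list (0.404), at -0.18.

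Of 25 transfer RNA synthetases and translation factors, 14 had higher values (median 0.02), with the smallest p for Vars2 at 0.18, and of 73 mitoribosomal protein genes 18 had higher values (median -0.04, and 0.0080 without vehicle library 4). Higher values were found in 51.8% of all genes tested. Of 38 assembly factors 20 had higher values (median 0.01), with the smallest p for Sdhaf4 at -0.18. Among 13 regulators of mitochondrial biogenesis, 9 had higher values, with a median of 0.06. Ppargc1a, a coactivator of these genes, averaged 14.8 ± 2.12 FPKM in the oxonic acid group and 12.1 ± 1.58 FPKM in the vehicle group (SD, n = 5 each), a difference of 0.28 on the log2 scale (SE 0.108, limma adjusted p = 0.473). Esrrb and Esrrg, next in that list by p, were at 0.46 and 0.14 (limma adjusted p of 0.473 and 0.525). Lower values were found for 4 of the 13, among them the nuclear receptor Esrra at -0.01. At an unadjusted p under 0.05 in limma, 2 of the 13 were higher and 0 lower, against 4.32% and 5.17% of all genes tested. None of the lists held a gene that passed in limma.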

How the data were processed

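Trizol extraction, poly-T bead selection and random priming are named in the labels' protocols, which do not say if libraries were directional. The submitters' processing notes list fastp, featureCounts 1.5.0-p3, StringTie 1.3.3b and HISAT2 2.0.5. The deposited table holds FPKM per gene and library, computed by the authors. Multiplied by gene length, 100% of FPKM values fell within 0.01 of a whole number of reads in units of a constant per library, and these reads gave the shares. The library size used in the FPKM was 0.977 to 1.006 times the reads in genes with oxonic acid. With vehicle it was 0.997 to 1.038 times. FPKM are relative, so abundant transcripts shift the share of the others.

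The library name in each sample's description tied it to its column. Genes with a mean of at least 0.5 FPKM (14508) were tested on log2(FPKM + 0.5), oxonic acid minus vehicle, with limma 3.58.1 (mean-variance trend) in R 4.3.3, two-sided, with Benjamini-Hochberg adjustment over all of them and a threshold of 0.05. The pseudocount understates differences of genes with low values. No 2 libraries agreed within sampling noise (lowest chi-square per degree of freedom 5.00). The procedure was also run on simulated data with genes drawn independently. Those data held no effect shared by a library or run, so they cannot speak to such effects. Figures used matplotlib 3.10.9.

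The members, lists and tests were chosen with earlier results of these data known. Of 368 list symbols, 338 matched genes of the table, by symbol, by Ensembl ID or by an older name in RefSeq's gene table (GRCr8). Every mitochondrial message and ribosomal RNA is named; other list genes are named by smallest p or from a fixed set. Alternatives changed the pseudocount, filter, scaling, weights, block and libraries. Sequences of the members are not used here.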

Additional observations from a re-analysis of the deposited data

Results flagged for a closer look

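Each value was compared with the rest of its group of 5 libraries by Dixon's test at the 95% level, over 43 values in 2 groups, where chance would mark about 1 in 20. In the vehicle group, library 4 lay below the other 4 libraries in 3 values: Mt-nd2 at 4155 FPKM (others 4958 to 5214), Mt-nd3 at 1853 FPKM (others 2362 to 2543) and the share of reads in mitochondrial genes at 9.23% (others 11.3 to 12.1%). Among transfer RNA genes, the minus-strand gene at 5081 to 5152 was high in oxonic acid library 3, at 157 FPKM (others 91.0 to 108). The gene at 3835 to 3903, just before Mt-nd2, was high in oxonic acid library 5, at 11.0 FPKM (others 1.82 to 3.99), and in vehicle library 4, at 4.71 FPKM (others 0.764 to 1.80). These rest on 11 and 5 reads. The gene at 5010 to 5078 measured 2.00 FPKM, from 2 reads, in oxonic acid library 5 and 0 in the other 4 oxonic acid libraries.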

How the results depend on the processing

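Over the alternatives run, 733 values of single mitochondrial genes gave 696 on the same side and 37 in the other direction, and 0 had an adjusted p under 0.05 (lowest 0.105). Changing the filter or adding the replicate block leaves each log2 difference as it was, so the direction of those values was fixed in advance. With the replicate block, 0 mitochondrial genes passed. The median log2 difference of the 12 plus-strand messages stayed at 0.20, which this block cannot change because each replicate number belongs to 1 library per group. The numbers did not pair libraries (correlations of deviations -0.0132 to 0.203). That median was -0.0036 relative to the mitochondrial total and -0.0048 within run B, where the share differed by -0.00105 percentage points. The cause was not tested. Leaving out 1 library gave medians of 0.14 to 0.23 and share differences of 0.885 to 1.62 points.

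Relative to the mitochondrial total, which by construction centres these genes, log2 differences were -0.025 for Mt-nd1, -0.0029 for Mt-co1, -0.047 for Mt-co2, -0.13 for Mt-atp8, -0.0043 for Mt-atp6, -0.042 for Mt-nd4, -0.030 for Mt-nd5, -0.0020 for Mt-cytb, -0.067 and -0.14 for the shorter and longer ribosomal RNA genes, and -0.11, -0.067 and -0.15 for the transfer RNA genes starting at 1026, 5081 and 14062. With the runs as a block, only runs B and C set the difference. In that fit log2 differences were -0.059 and -0.14 for those at 5081 and 14062, -0.026 for Mt-atp8, 0.0078 for Polg, 0.029 for Lrpprc and 0.057 for Esrra. Elac2 was at -0.016 scaled to equal totals and -0.016 with library weights, and Esrra at 0.049 with library weights. The cause was not tested.

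Leaving out 1 library turned the direction in some fits, giving -0.31 to 0.36, -0.24 to 0.036, -0.67 to 0.62, -0.040 to 0.89, -0.020 to 0.745, -0.076 to 0.20 and -0.11 to 0.073 for the transfer RNA genes starting at 1026, 5185, 11538, 11606, 11665, 14062 and 15348. The longer ribosomal RNA gene gave -0.0037 to 0.12, Mt-nd6 -0.054 to 0.031, Tfam -0.081 to 0.033, Elac2 -0.012 to 0.046 and Esrra -0.050 to 0.049.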

Other observations

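Among the nuclear subunit genes, 2 had values far from the rest of their complexes, chosen here after their values were seen. Ndufa1 measured 1.18 to 65.8 FPKM in the oxonic acid libraries and 0.989 to 7.91 FPKM in the vehicle libraries, and Atp5f1 (now Atp5pb) 1.19 to 35.5 and 1.05 to 4.04 FPKM. The mitoribosomal protein genes had the lowest share of members with higher values among the mitochondrial lists, 24.7%, against 51.8% of all genes tested. Their median log2 difference was -0.068 to 0.0080 when 1 library was left out, and their summed level was highest, at 3320.0 FPKM, in vehicle library 4.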
